A study of Mus musculus with 1 sample.

Results

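The nuclear genes for the subunits of oxidative phosphorylation were read in 1 RNA-seq library of VM-glia, a mixed glial culture grown from the ventral midbrain (VM) of ICR(CD-1) outbred mouse pups at postnatal day 5. The members were the rows whose symbols start with Nduf followed by a, b, c, s or v and a number, with Uqcr, with Cox4 to Cox8 or with Atp5, together with Sdha, Sdhb, Sdhc and Sdhd, and no symbol ending in -ps was among them. This gave 84 genes of the 23282 rows, with 37 in complex I, 4 in complex II, 8 in complex III, 18 in complex IV and 17 in complex V. The library carried the control label of a study that inhibited the kinase SGK1 in glia, and inhibitor-treated libraries were not analysed here. The header of the value column and the study name DMSO, the vehicle, for this control. The sample labels do not say whether it also received a toxin, or how many pups or cultures it held. With 1 library there was no replicate, the spread between cultures is unknown, and no difference was tested. Every value is the authors' normalized read count for a gene, called the value here, and the values summed to 27569507 over the table.

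Oxidative phosphorylation makes most of the ATP of a resting cell. Complex I (NADH dehydrogenase) and complex II (succinate dehydrogenase) pass electrons to ubiquinone, complex III passes them on to cytochrome c, and complex IV (cytochrome c oxidase) hands them to oxygen, while complexes I, III and IV pump protons out of the mitochondrial matrix. Complex V (ATP synthase) lets the protons flow back through a turning ring and makes ATP. Most subunits are encoded in the nucleus and imported, whereas a few central ones are encoded in mitochondrial DNA. Astrocytes are known for active glycolysis beside respiration, and several subunits of complex IV exist in tissue isoforms. The culture held markers of both main glial types, with astrocyte markers between 604 (S100b) and 17222 (Gfap) and microglial markers between 984 (Tmem119) and 32619 (C1qa). The study describes its VM-glial cultures as mainly astrocytes with fewer microglia, and the height of a marker value does not give the share of a cell type. Of 4 neuron markers, Stmn2 was at 3802, and Snap25, Rbfox3 and Syt1 were at 86, 20 and 6. In bulk RNA the contributions of the cell types in the culture to any gene below cannot be told apart. Nor can fewer cells of a type be told from less RNA per cell.

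The nuclear subunit genes were nearly all present and mostly abundant. A value of 10 or more, called detected here, was reached by 80 of the 84 genes (95.2%), against 67.2% of all rows. The 4 genes below it were Cox7b2, at 2, and Cox8b, Cox8c and Ndufa4l2, each listed at 0. All 4 encode isoforms or relatives of a common subunit. Of the 80 detected members, 42 (52.5%) were in the top 10% of detected rows, that is above a value of 3269, a class that holds 10.0% of detected rows by construction. The median value over all 84 members was 3254, against 469 over all detected rows. Together the 84 genes held 1.34% of the sum of all values, and the 5 highest genes held 24.5% of the members' share.

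**Figure D1:**
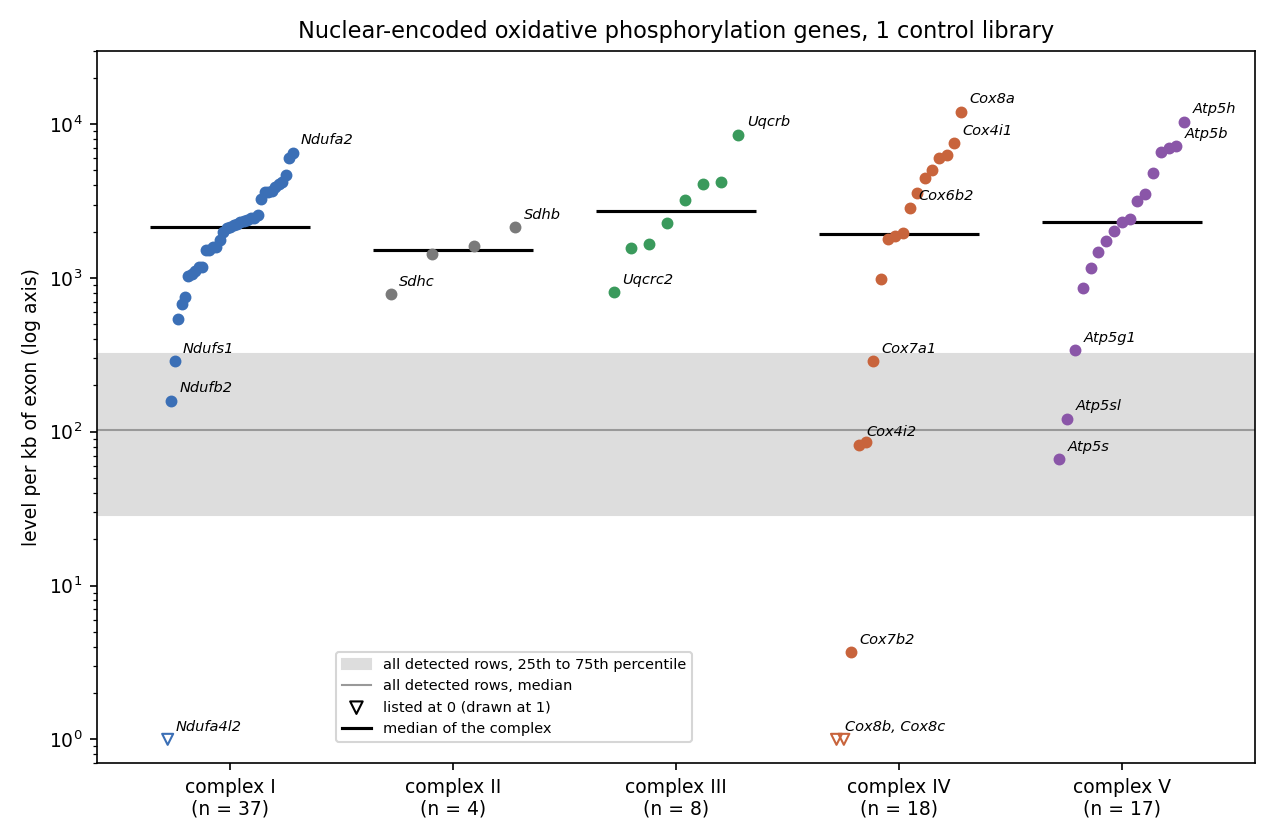
Level of each of the 84 genes, as the normalized read count per kb of exon on a log axis, by complex. Each point is 1 gene in the 1 control library, black bars are the medians of the complexes, the grey band spans the 25th to the 75th percentile of all detected rows and open triangles mark genes listed at 0. The medians of the 5 complexes lie between 1523 and 2742, all above the band, and the genes within or below the band include the tissue isoforms of complex IV other than Cox6b2.

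The 6 genes with values of 10000 or more belonged to complexes IV and V. Atp5b, the catalytic beta subunit of ATP synthase, had the highest value of all members, 30348, above 99.5% of detected rows. Its partner Atp5a1, the alpha subunit, was at 20636, and Atp5h, a subunit of the stalk that holds the enzyme still, was at 15208. Cox6c was at 12734 and Cox4i1 at 11695, both subunits around the catalytic core of cytochrome c oxidase. Atp5j, another stalk subunit, was at 10979. At the other end, the 6 lowest detected members were Ndufb3 at 518, Atp5sl at 367, Cox7a1 at 154, Atp5s at 135, Cox4i2 at 65 and Cox6a2 at 58. Of these 6, only Ndufb3 encodes a common structural subunit.

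A longer mRNA gives more reads at the same number of molecules, so the undivided values above give the size of each row, and the levels compared from here on are per kb. The length was taken in 2 ways, as all annotated exon bases of a gene (per kb of exon) and as its longest annotated transcript paired with a RefSeq mRNA (per kb of mRNA). The median level of the members was 2119 per kb of exon, against 102 over all detected rows, and 4158 per kb of mRNA, against 160. On the 2 scales 77 and 76 of the 84 genes lay above the median of detected rows. The mRNAs are short, with a median of 764 bases against 3056 over detected rows, and the coding part had a median of 409.5 bases against 1380. The order of the complexes by median level depended on the length used. Per kb of exon it ran from complex III (2742) through V (2325), I (2146) and IV (1924) to II (1523). Per kb of mRNA it ran from complex V (6126) through III (4219), IV (3658) and I (3449) to II (1825). Complex II was lowest on both scales, and the others changed places. This rank of complex II rests on 4 genes and on the division by length. By undivided median value complex II (3658) stood above all but complex V (4633), and complex IV was lowest (2431).

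**Figure D2:**
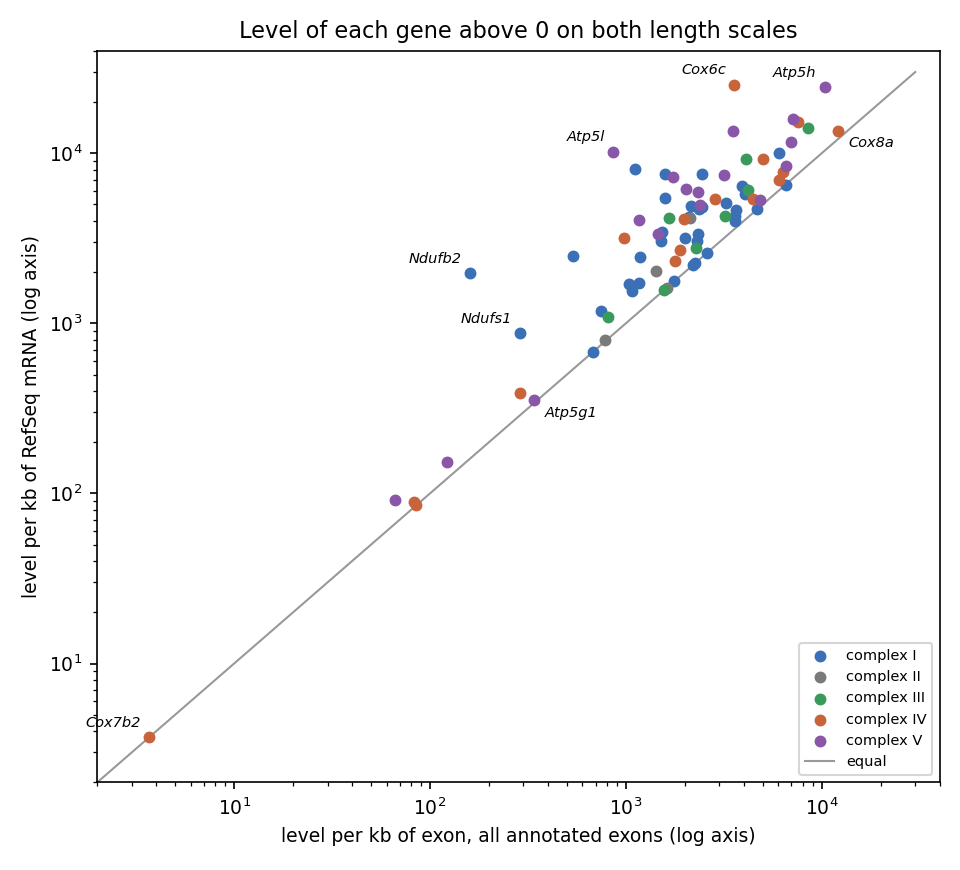
Level of each gene above 0 per kb of all annotated exon (horizontal) and per kb of RefSeq mRNA (vertical), both on log axes, coloured by complex, in the 1 control library. Points on the line have equal lengths on both scales. Genes far above it, such as Atp5l (860 and 10182) and Ndufb2 (160 and 1974), have annotated exon well beyond their RefSeq mRNA.

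For 29 of the 84 genes the annotated exons summed to more than 2 times the RefSeq mRNA. The ratio was highest in Ndufb2, at 12.4. This gene, an accessory subunit of complex I, had a value of 898, which is 160 per kb of exon and 1974 per kb of mRNA. Atp5l, the g subunit of the membrane part of ATP synthase, had a value of 5539, which is 860 per kb of exon and 10182 per kb of mRNA. Cox6c had the highest level of all members per kb of mRNA (25316) and stood at rank 24 per kb of exon (3570).

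In complex I, the largest complex, 36 of 37 genes were detected and 17 were in the top 10% of detected rows. Its 7 nuclear core subunits carry the flavin and the iron-sulfur clusters that pass electrons from NADH to ubiquinone. Their median level was 2146 per kb of exon and 3027 per kb of mRNA. The 28 accessory subunits, which surround and stabilize the core, had medians of 2232 and 4236. The core genes spanned a wide range. Ndufv2, an iron-sulfur subunit of the arm that oxidizes NADH, had a value of 7847 and the highest core level per kb of exon, 3655, with 4624 per kb of mRNA. Ndufv1, which binds NADH and the flavin beside it, had a value of 1966, with 746 per kb of exon and 1184 per kb of mRNA. The 2 proteins stand in equal number in the enzyme, and the level of Ndufv2 was 4.90 times that of Ndufv1 per kb of exon and 3.91 times per kb of mRNA. Ndufv2 has 2 RefSeq mRNAs, and per kb of the shorter its level was 8465, against 1184 for Ndufv1.

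Ndufs1, which carries further iron-sulfur clusters of the same arm, was the lowest core gene on both scales, with a value of 2328, or 288 per kb of exon and 875 per kb of mRNA. Its exons overlap those of Ino80dos over 489 bases and those of Eef1b2 (value 20699) over 9 bases, both on the opposite strand. Core subunits that lead towards ubiquinone were closer together. Ndufs7 was at 3687 (2146 per kb of exon), Ndufs8 at 2976 (2305) and Ndufs3 at 2571 (1180). Per kb of mRNA their levels were between 2458 (Ndufs3) and 4864 (Ndufs7).

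Among the accessory subunits of complex I, Ndufa2 was highest per kb of exon (value 3735, level 6530), followed by Ndufb10 (value 7357, level 6045) and Ndufa13 (value 5867, level 4690). Ndufb10 was highest of complex I per kb of the longest mRNA, at 10051. Per kb of the shortest mRNA, Ndufa5 (11806) and Ndufa12 (11304) stood above it. Ndufa2, Ndufb10 and Ndufa13 are small proteins of different parts of the enzyme. Ndufb3 was the lowest detected gene of the complex by value, 518, and also per kb of mRNA, 679. Ndufa1, encoded on the X chromosome with Ndufb11 and Cox7b, had a value of 925 and a level of 2208 on both scales, because its annotated exons are those of its mRNA. Without the gene listed at 0, the levels within complex I spanned 40.9-fold per kb of exon and 14.8-fold per kb of mRNA.

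Complex II is the only respiratory complex with no subunit encoded in mitochondrial DNA, and it is also an enzyme of the citric acid cycle. All 4 genes were detected. Sdha, the flavoprotein that oxidizes succinate, had a value of 5897, with a level of 1429 per kb of exon and 2033 per kb of mRNA. Sdhb, the iron-sulfur subunit, had a lower value, 4771, and the highest level of the 4, 2131 per kb of exon and 4178 per kb of mRNA. The membrane anchors Sdhc and Sdhd had values of 2545 and 1991. Per kb of exon the level of Sdhc was 783 and that of Sdhd 1617, and per kb of mRNA they were 803 and 1617. Sdhb exceeded Sdhc by 2.72 times per kb of exon and 5.21 times per kb of mRNA. No exon of these 4 genes overlaps another annotated gene and none has a near-identical annotated copy.

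In complex III all 8 genes were detected and 4 were in the top 10% of detected rows. Uqcrb, the subunit that takes part in ubiquinone binding, was highest on both scales, with a value of 7474 and a level of 8532 per kb of exon and 13970 per kb of mRNA. It has 4 near-identical annotated copies, none with a row of its own. The small subunits Uqcr11 (value 2690) and Uqcrh (value 5057) followed at 4197 and 4088 per kb of exon, and were at 6045 and 9245 per kb of mRNA. The large core proteins were lower. Uqcrc1 was at 6841, which is 1654 per kb of exon and 4139 per kb of mRNA, and Uqcrc2 was at 2063, which is 808 and 1088. Uqcrc2 was thus the lowest gene of the complex per kb on both scales, and its exons overlap a gene on the opposite strand over 504 bases. Uqcrfs1, the Rieske iron-sulfur protein and a catalytic subunit, had a value of 2144 and a level of 1573 on both scales. The 5 small accessory subunits had a median of 4088 per kb of exon and the 3 larger proteins 1573.

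In complex IV, 15 of 18 genes were detected and 7 were in the top 10% of detected rows. Its lowest genes encode alternative forms of a subunit. Its median level was 1924 per kb of exon over all 18 genes and 4734 without the 7 tissue-restricted isoforms and Cox7a2l. Cox8a, the common form of a small membrane subunit, had the highest level per kb of exon of all 84 genes, 12058, from a value of 7464 (above 99.2% of detected rows on that scale). Cox4i1 (7545 per kb of exon, 15288 per kb of mRNA) and Cox6a1 (6328 and 7779) followed. Cox5b, a zinc-binding subunit, had a value of 7989, and Cox5a, which stands in equal number beside it, had a value of 2059. The level of Cox5b was 5.14 times that of Cox5a per kb of exon and 2.89 times per kb of mRNA. Cox5a has 1 near-identical annotated copy and overlaps a gene on the opposite strand over 269 bases. Cox7c had a value of 2227, and its copy Gm10012 had a row of its own at 55.

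Tissue-restricted isoforms were low beside their common form or not detected, with Cox6b2 as the exception. Subunit 4 is encoded by Cox4i1 in most tissues and by Cox4i2 in lung and in the mural cells of vessels. Cox4i1 was at 11695 and Cox4i2 at 65, a ratio of 91.5 per kb of exon and 171 per kb of mRNA. For subunit 6a, the common Cox6a1 was at 4442 and the heart and skeletal muscle form Cox6a2 at 58, a ratio of 74.2 per kb of exon and 91.2 per kb of mRNA. For subunit 7a, the common Cox7a2 was at 1773 and the muscle form Cox7a1 at 154. Their ratio was 6.52 per kb of exon and 6.87 per kb of mRNA, so that Cox7a1 held 13.3% of the level of the pair per kb of exon. Cox7a1 was the muscle isoform with the highest level. Per kb of exon it lay above 73% of detected rows, and Cox4i2 and Cox6a2 lay above 45% and 46%. By undivided value Cox7a1, Cox4i2 and Cox6a2 lay above 29%, 18% and 17% of detected rows. Cox7a2l, a related protein that helps respiratory supercomplexes form, was at 2635, with 1783 per kb of exon, near the level of Cox7a2 (1878).

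The other isoform genes were at or near 0. Cox7b was at 5383 and its testis form Cox7b2 at 2. Cox8a was at 7464, and both the muscle form Cox8b and the testis form Cox8c were listed at 0. Ndufa4, first assigned to complex I and now placed in complex IV, was at 2104, and its hypoxia-induced relative Ndufa4l2 was listed at 0. Markers of striated muscle and of pericytes were mostly low too, and markers of lung were not read. Of the 6 striated muscle markers, 4 were detected, with none above 80 (Tnnt2), and Ckm was at 1. Of 6 pericyte markers, 3 were detected, and Rgs5 was at 9 and Higd1b at 0, while Pdgfrb, which other mesenchymal cells also carry, was at 1150. Smooth muscle markers were higher, from 284 (Myh11) to 26499 (Acta2), and Acta2 and Tagln (11771) are also made by cultured fibroblast-like cells. The part of any of these cells in the Cox7a1, Cox4i2 or Cox6a2 values was not tested.

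**Figure D3:**
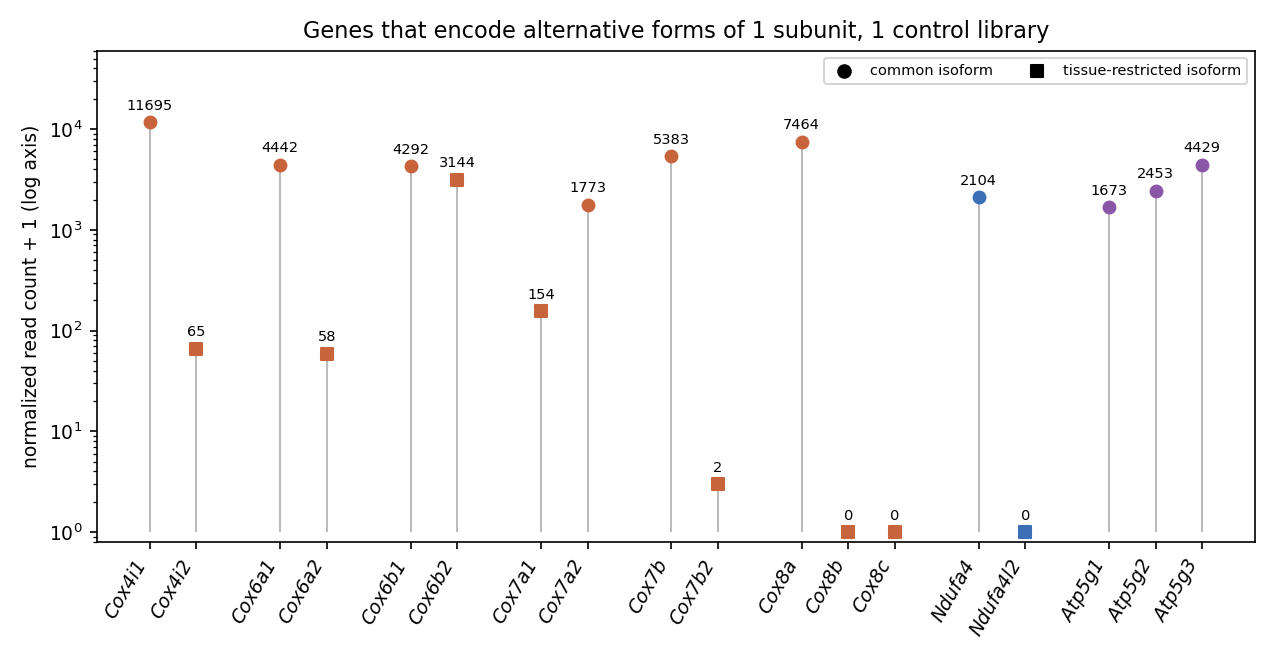
Normalized read count plus 1 on a log axis for the genes that encode alternative forms of 1 subunit, in the 1 control library, with the value printed above each point. Circles are common isoforms, squares tissue-restricted ones, and colours give the complex by symbol. The squares lie between 0 and 154 except Cox6b2 at 3144, which lies close to Cox6b1 at 4292.

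Cox6b2, the testis form of subunit 6b, had a value of 3144, above 89.5% of detected rows, beside 4292 for the common form Cox6b1. The level of Cox6b1 was 6062 per kb of exon and that of Cox6b2 2838, a ratio of 2.14. Per kb of mRNA the ratio was 1.29. Cox6b2 has 4 annotated RefSeq mRNAs, and on the shortest mRNA of each gene the ratio was 0.93, so the order of the 2 genes turned with the length chosen. Of 5 germ cell markers 1 was detected. Tnp1, Prm1 and Dazl were listed at 0, Ddx4 was at 1, and the meiotic gene Sycp3 was at 103. The other testis isoforms were Cox8c at 0 and Cox7b2 at 2, as given above. Cox6b2 lies on chromosome 7 (GRCm38, 4751792 to 4753094, minus strand) and shares no exon base with another annotated gene. Its nearest neighbour, Fam71e2, lies 131 bases away on the same strand and was listed at 0, and Kmt5c (listed under its older symbol Suv420h2) and Il11 further out were at 339 and 307. No near-identical copy of Cox6b2 was found in the annotated transcripts.

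The coding sequences of the subunit 6b pair are shown so that the likeness of the 2 genes can be read base by base. They are the spliced coding sequences in GENCODE M21 on GRCm38, stop codon included, from Cox6b1 on chromosome 7 (30616861 to 30626151, minus strand) and from Cox6b2 at the position above. Capitals mark bases that differ from the other gene, or have no partner there, in a global alignment.
Cox6b1: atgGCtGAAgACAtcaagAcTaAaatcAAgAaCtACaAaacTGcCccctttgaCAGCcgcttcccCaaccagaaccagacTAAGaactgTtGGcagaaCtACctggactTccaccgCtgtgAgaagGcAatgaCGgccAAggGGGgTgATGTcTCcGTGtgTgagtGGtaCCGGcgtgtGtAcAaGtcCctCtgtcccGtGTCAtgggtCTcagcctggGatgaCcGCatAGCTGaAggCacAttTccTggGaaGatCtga
Cox6b2: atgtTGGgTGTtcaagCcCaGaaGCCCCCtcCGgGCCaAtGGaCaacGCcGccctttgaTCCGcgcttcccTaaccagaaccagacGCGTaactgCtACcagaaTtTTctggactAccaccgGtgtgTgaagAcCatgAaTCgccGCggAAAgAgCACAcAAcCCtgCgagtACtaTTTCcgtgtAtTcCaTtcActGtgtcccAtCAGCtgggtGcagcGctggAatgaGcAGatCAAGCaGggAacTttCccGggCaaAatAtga
Of 257 aligned bases 166 (64.6%) were identical, and the longest identical run was 14 bases. The reads behind the values were not analysed here, so whether any were shared between the genes was not tested. The other isoform groups of complex IV were about as far apart, with coding identities from 58.2% (Cox8a and Cox8b) to 69.8% (Cox4i1 and Cox4i2).

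Complex V had 17 genes, all detected, with 12 in the top 10% of detected rows. The catalytic head is built from alpha (Atp5a1) and beta (Atp5b) subunits in equal number around a central stalk of gamma (Atp5c1), delta (Atp5d) and epsilon (Atp5e). The level of Atp5b was 7163 per kb of exon and 15839 per kb of mRNA, and that of Atp5a1 was 6582 and 8351, a ratio of 1.09 per kb of exon and 1.90 per kb of mRNA. The gamma gene Atp5c1, with a value of 9240, was lower, so that Atp5b exceeded it 1.48 times per kb of exon and 2.97 times per kb of mRNA. Atp5d was at 4633 and Atp5e at 3043. Per kb of exon Atp5d was 1.39 times as high as Atp5e, whereas per kb of mRNA the ratio was 0.69.

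Over the 4 peripheral stalk genes the median level was 3329 per kb of exon and 10491 per kb of mRNA, and over the 5 genes of the head it was 4843 and 7228, so the order of the 2 parts turned with the length. Atp5h had the highest level of complex V on both scales, 10381 per kb of exon and 24333 per kb of mRNA. It has 5 near-identical annotated copies, none with a row. Per kb of exon Atp5j was at 3508, Atp5o (value 6211) at 3150 and Atp5f1 (value 9542) at 2324, and per kb of mRNA they were at 13571, 7412 and 5949. The subunits of the membrane part were Atp5k (value 4295, 6972 per kb of exon and 11577 per kb of mRNA), Atp5j2 (value 3851, 1165 and 4032) and Atp5l, which has 13 near-identical annotated copies, the most of any member. Atp5s and Atp5sl, both counted among the 17 genes of complex V, are not structural parts of the enzyme. They were the lowest, at values of 135 and 367 and levels of 66.2 and 122 per kb of exon.

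The turning ring of complex V is made of many copies of 1 small protein, subunit c, that 3 genes encode. Atp5g3 had a value of 4429, Atp5g2 of 2453 and Atp5g1 of 1673. Per kb of exon Atp5g3 was at 2031, Atp5g2 at 1464 and Atp5g1 at 341, and per kb of the longest mRNA they were at 6126, 3356 and 355. Atp5g1 has 2 RefSeq mRNAs, of 596 and 4715 bases, and which was read in this library was not tested. Atp5g3 exceeded Atp5g1 by 17.3 times per kb of the longest mRNA and by 2.21 times per kb of the shortest, while the order of the 3 genes was the same on each scale used. The ends of their coding sequences, which encode the ring protein itself, are shown because they differ in bases but not in protein. Capitals mark positions where the 3 genes are not all alike. The genes lie on chromosome 11 (96068852 to 96075670, minus strand), chromosome 15 (102662864 to 102672352, minus strand) and chromosome 2 (73908447 to 73911326, minus strand) of GRCm38 in the order printed.
Atp5g1: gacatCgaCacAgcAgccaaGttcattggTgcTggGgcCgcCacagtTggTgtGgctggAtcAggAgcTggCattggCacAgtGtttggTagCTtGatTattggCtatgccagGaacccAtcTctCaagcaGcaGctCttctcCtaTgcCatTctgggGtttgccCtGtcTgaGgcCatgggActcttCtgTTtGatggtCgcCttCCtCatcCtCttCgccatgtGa
Atp5g2: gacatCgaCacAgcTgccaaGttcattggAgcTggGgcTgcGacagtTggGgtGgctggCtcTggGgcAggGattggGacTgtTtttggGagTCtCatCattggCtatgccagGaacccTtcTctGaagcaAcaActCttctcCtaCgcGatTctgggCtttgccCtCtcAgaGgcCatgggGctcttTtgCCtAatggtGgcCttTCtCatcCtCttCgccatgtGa
Atp5g3: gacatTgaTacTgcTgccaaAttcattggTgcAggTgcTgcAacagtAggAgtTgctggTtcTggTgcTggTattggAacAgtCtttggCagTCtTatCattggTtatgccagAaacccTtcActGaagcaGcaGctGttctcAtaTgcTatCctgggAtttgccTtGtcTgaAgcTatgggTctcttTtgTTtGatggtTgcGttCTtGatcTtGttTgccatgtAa
The 3 runs of 228 bases differ at 58 positions and encode 1 and the same sequence of 75 residues. The coding bases before them, which encode the import signal that is cut off, differ in length, with 183 in Atp5g1, 213 in Atp5g2 and 198 in Atp5g3. Atp5g2 has 2 near-identical annotated copies, and the other two have none.

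The proteins that build the complexes but are not part of them were far lower than the subunits. Their list held 48 assembly factors, all detected, and 2 of them were in the top 10% of detected rows. Their median level was 184 per kb of exon, so the median of the 84 subunit genes was 11.5 times as high, and 16.8 times per kb of mRNA. The subunits were higher for each complex. For complex I the median per kb of exon was 2146 for subunits and 198 for assembly factors, for complex III it was 2742 and 98.4, and for complex IV it was 1924 and 191. The 2 abundant factors were Pet100 (value 4038, complex IV) and Uqcc2 (value 3317, complex III), and Uqcc2 was highest per kb of exon, at 3963. The lowest was Sdhaf3, at 35, or 6.9 per kb of exon.

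**Figure D4:**
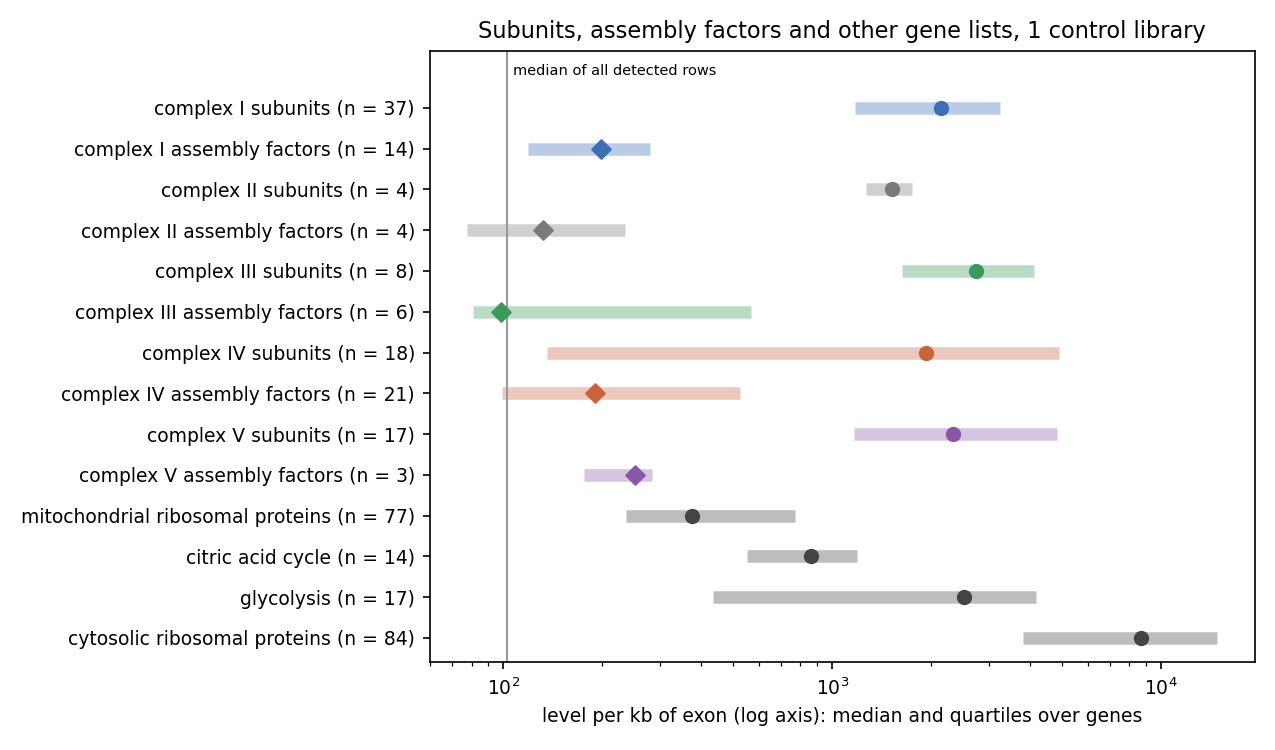
Level per kb of exon, on a log axis, for the subunits and the assembly factors of each complex and for 4 other gene lists in the 1 control library. Symbols are medians over genes (circles subunits and other lists, diamonds assembly factors) and bars span the 25th to the 75th percentile of the genes. The 5 subunit medians lie between 1523 and 2742 and the 5 assembly factor medians between 98.4 and 252, and the median of all detected rows is 102.

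Other genes of energy metabolism gave a scale for these levels. The 14 citric acid cycle enzymes had a median of 865 per kb of exon, from 198 (Suclg2) to 2666 (Idh2), and the subunit median was 2.45 times as high. The 17 glycolytic genes had a median of 2513, from 196 (Eno1) to 15303 (Aldoa), and the ratio of subunit to glycolytic medians was 0.843 per kb of exon and 0.972 per kb of mRNA. Over the 73 members left without tissue-restricted isoforms and non-structural symbols, the medians were 2289.5 per kb of exon and 4624 per kb of mRNA. The glycolytic medians were 2513 and 4277, so for these members the order turned with the length. Near-identical copies were searched for the 84 members only. Whether copies limit the value of Eno1 (1052) or of other listed genes was not tested. The 77 mitochondrial ribosomal proteins, which make the subunits encoded in mitochondrial DNA, had a median of 375, from 64.3 (Mrps17) to 4999 (Mrpl52). The 84 rows named as cytosolic ribosomal proteins by their symbols, which include relatives such as Rpl10l (listed at 0), were higher than the subunits, with a median of 8681 and Rpl26 highest at 52015. None of the 13 protein genes of mitochondrial DNA had a row in the table, so the central subunits they encode could not be set beside the nuclear ones.

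Some proteins of the pathway fall outside the symbols used to choose the members. Cytochrome c (Cycs) was at 4174, and its testis form Cyct at 10. Cytochrome c1 (Cyc1), the catalytic heme subunit of complex III, was at 1754, with 814 per kb of exon. Ndufab1, the acyl carrier protein of complex I, was at 2147, and Atpif1, the inhibitor of ATP synthase, at 12293 and 8531 per kb of exon, between Atp5h (10381) and Atp5b (7163) on that scale. The carriers that move ADP and ATP across the inner membrane were Slc25a4 at 12018 and Slc25a5 at 5656, and the testis form Slc25a31 was at 5. The phosphate carrier Slc25a3 was at 4799.

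The genes are scattered over 19 chromosomes, with 9 on chromosome 7 and 3 on the X chromosome, and have a median of 4 exons against 9 for detected rows. The promoters of 69 members were found in RefSeq promoter windows on GRCm38, from 250 bases before to 50 bases after a start, with 75 windows in all. They had a median GC content of 57.3% and 6.33 CpG per 100 bases, against 52.7% and 2.33 over all 32851 windows. Both strands were searched for letters that factors known to act on such genes can bind. GCATGCGC (NRF1) was in 13.3% of member windows and 2.71% of all, AAGATGGC (YY1) in 16.0% and 2.75%, AAGGTCA (ERRα) in 10.7% and 4.72%, and CCGGAAGT (GABPA) in 6.7% and 3.89%. TATAAA was in 10.7% of member windows and 13.62% of all. At least 1 of the 4 factor motifs was found in 31 of 69 genes (44.9%), against 14.9% of all 27025 genes with a window, and 2 or more in 3 genes (4.3%), against 1.0%. The letters GCATGCGC and CCGGAAGT contain CpG, and no background matched to the members for CpG was counted. These shares count letters in windows of reference sequence and say nothing of binding in this culture.

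The position of the letters differed between motifs. A start here is that of the RefSeq promoter window, and it can lie inside the gene as annotated in GENCODE M21. The NRF1 letters lay wholly before the start in 8 of 10 members, across it in Uqcr11 and after it in Uqcrc1. Where both strands match, as in Atp5k, the strands share letters. Of 12 YY1 matches, in which 1 site of Atp5sl counts in both of its windows, 9 lay 22 to 38 bases after the start, and the letters AAGATGGC contain ATG, the triplet of a start codon. Stretches from 4 members of complex V show each motif in capitals, with their windows on GRCm38 written 5′ to 3′ along the gene.
Atp5k, NRF1, chr5:108434430-108434457, minus strand: tcactgcggcGCATGCGCctttctggct
Atp5j, YY1, chr16:84835047-84835074, minus strand: aagtgtaggaAAGATGGCggagtcttag
Atp5g3, ERRα read from the other strand, chr2:73911362-73911388, minus strand: tgttacaaagTGACCTTgagcgtcttc
Atp5h, GABPA read from the other strand, chr11:115419941-115419968, minus strand: caaggagagaACTTCCGGcaactctctt
The matches in Atp5k and Atp5j were 48 and 88 bases before the start of the promoter window's gene model, and those in Atp5g3 and Atp5h were 52 and 39 bases before it. By the GENCODE M21 bounds, the matches in Atp5k, Atp5j and Atp5h lie inside the gene, and that in Atp5g3 lies outside it.

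Annotated neighbours and copies limit single values. Exons of 29 members overlap those of another annotated gene, on the opposite strand in 26 and on the same strand in 5, and the strand setting of the counting is not given in the sources used here. Near-identical annotated copies (at least 90% identity over at least 50% of the mRNA) were found for 19 members, 39 copies in all, of which 2 had rows. The median level per kb of exon was 2107 for members with a copy and 2131 for those without. The copy of Ndufs5, BC002163, was listed in 2 rows, at 338 and 464, beside 3363 for Ndufs5 itself.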

How the data were processed

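Total RNA of the control VM-glia was extracted with Trizol and made into 1 library with a SMARTer mRNA kit. Per the study's methods, low-quality bases (quality below 20) were removed, STAR aligned the reads to GRCm38/mm10 and HTSeq-count tallied those on exons of RefSeq Release 105, whereas the submitters' processing notes list TopHat and edgeR. Versions, strand setting, treatment of multi-mapped reads and normalization are not given in the sources used here. The deposited values were whole numbers that the authors call normalized, so they were treated as a score of read-count size and never as raw counts. The number of reads behind them is unknown, so no interval, floor or test was possible, and a normalization that acts differently on different genes would change their ratios.

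Members were taken by symbol, and the members, lists and motifs were chosen with earlier results of these data known. The table was matched by symbol to GENCODE M21 (98.5% of rows, all 84 members), which is not the annotation the authors counted on. Values were divided by kb of annotated exon (the union over transcripts) or of the longest transcript paired with a RefSeq mRNA, and 14 members have more than 1 such mRNA. The minimum for a detected gene was a value of 10. Copies were found with BLAST 2.17.0, coding sequences were aligned with Biopython 1.88, and computations used Python 3.11.15, pandas 2.3.3, numpy 2.4.6 and matplotlib 3.10.9. The scripts were tested on simulated data. Named genes were the isoform groups, the core and catalytic subunits, the 3 highest and 2 lowest genes per kb of exon of each complex, members that were not detected or not structural, and the extremes of each comparison list, and other genes were named after their values were seen. A gene that this rule selects is not reported here. Alternatives were detection minima of 1, 3 and 100, other lengths or none, detected members only, no restricted isoforms, no members with copies, means of log2(level + 1) or log2(level + 0.1), and totals without the ribosomal RNA precursor Rn45s or the 10 highest rows.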

Additional observations from a re-analysis of the deposited data

How the results depend on the processing

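With 1 library no replicate could be left out, so no value has a check between cultures. No paired analysis was possible because the table held 1 sample of 1 group. Of 70 recomputed values for 12 results, 44 stayed within 1.5 times of the reported one. Complex medians became 3449 (I), 4219 (III), 3658 (IV) and 6126 (V) per kb of the longest RefSeq mRNA, and 4222 (I), 4219 (III), 3658 (IV) and 7228 (V) per kb of the shortest, both chosen after seeing the data. With the longest protein-coding transcript they were 4219 (III), 3167 (IV) and 6126 (V), and with no length 3658 (II) and 4633 (V). Back-transformed means of log2 values gave 577 for complex IV with a pseudocount of 1, and 441 for complex IV and 1414 for complex I with 0.1. By these means complex IV was lowest, with complex II at 1402.5 and 1401.5. Leaving out restricted isoforms and non-structural symbols gave 4734 for complex IV. The Cox4i1 to Cox4i2 ratio was 172 with the longest transcript, 180 with no length, and 171 and 176 with the longest and shortest RefSeq mRNA. The Cox7a2 to Cox7a1 ratio was 11.5 with no length. The Cox6b1 to Cox6b2 ratio was 1.29, 1.37 and 1.29 under the first 3 of these lengths and turned to 0.93 under the shortest RefSeq mRNA.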
